A study of Fundulus heteroclitus with 6 samples.

Results

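In Atlantic killifish (Fundulus heteroclitus) embryos, 43 isogroups shifted in opposite directions with PCB-126 in New Bedford Harbor (NBH) and Scorton Creek (SC) fish, of 1164 isogroups with enough reads to be sorted in this way and 22732 isogroups in all. An isogroup is a set of assembled contigs treated as the product of 1 gene. The 43 were selected on their measured read counts: the level with PCB-126 had to be at least 2 times the level with DMSO in 1 population and at most 0.5 times that level in the other. A level was the reads of an isogroup plus 0.5, divided by the summed counted reads of its library. At least 20 reads were required in the pair of libraries of each population. Isogroups with 100 or more reads in all 4 libraries were left out, which removed 101 of the 1265 with enough reads, and 0 of those 101 had an opposite shift. Of the 43, 25 were higher with PCB-126 in NBH and lower in SC, and 18 were lower in NBH and higher in SC.

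PCB-126 is a dioxin-like polychlorinated biphenyl that binds the aryl hydrocarbon receptor (AHR), a transcription factor of the cytoplasm that moves to the nucleus on binding, pairs with ARNT and raises the transcription of its target genes. CYP1A, a cytochrome P450 that oxidises planar aromatic compounds, is the best known of these targets. Fish embryos with a responsive AHR pathway develop edema of the heart sac and malformations after such exposures. NBH in Massachusetts is heavily contaminated with PCBs, and its killifish are known for resistance to these effects, whereas SC in the same state serves as the reference population. The deposited table does not pair isogroups with gene names, and 0 isogroup names matched the RefSeq gene table of the species. None of the 43 could therefore be placed in the AHR pathway or given a function or a sequence here.

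The data were 4 cDNA libraries of embryos at 10 days post-fertilization (dpf), with 1 library each for NBH embryos given PCB-126, NBH embryos given the solvent DMSO, SC embryos given PCB-126 and SC embryos given DMSO. The embryos came from adults collected at the 2 sites, and the RNA of several pools of embryos was combined in each library. The sample labels place the treatment in the 6 hours before sampling, whereas the methods of the study describe a brief exposure soon after fertilization, so the timing cannot be settled here. The libraries were primed from the 3′ end of each transcript, and the deposited counts summed to 123644 reads for NBH PCB-126, 95410 for NBH DMSO, 132893 for SC PCB-126 and 124000 for SC DMSO. With 1 library per condition there was no replicate error, so every interval given covers counting error only, and in whole embryos fewer cells of a type and less RNA per cell cannot be told apart.

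The comparison asks which transcripts moved one way with PCB-126 in embryos of the resistant population and the other way in embryos of the reference population. The 25 isogroups with the first pattern were 2.15% of the 1164, and the 18 with the second were 1.55%. The values that chose them are described below without a test. Shifts of that size in the same direction were about as frequent: 23 isogroups (1.98%) were higher with PCB-126 in both populations and 28 (2.41%) were lower in both. Within NBH alone, 167 isogroups (14.3%) were at least 2 times higher with PCB-126 and 141 (12.1%) at most 0.5 times as high. Within SC alone the counts were 135 (11.6%) and 139 (11.9%). In all, 43 isogroups were past the ratio in both populations with opposite shifts and 51 with shifts in the same direction, with no library shared between the NBH and the SC comparison.

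**Figure D1:**
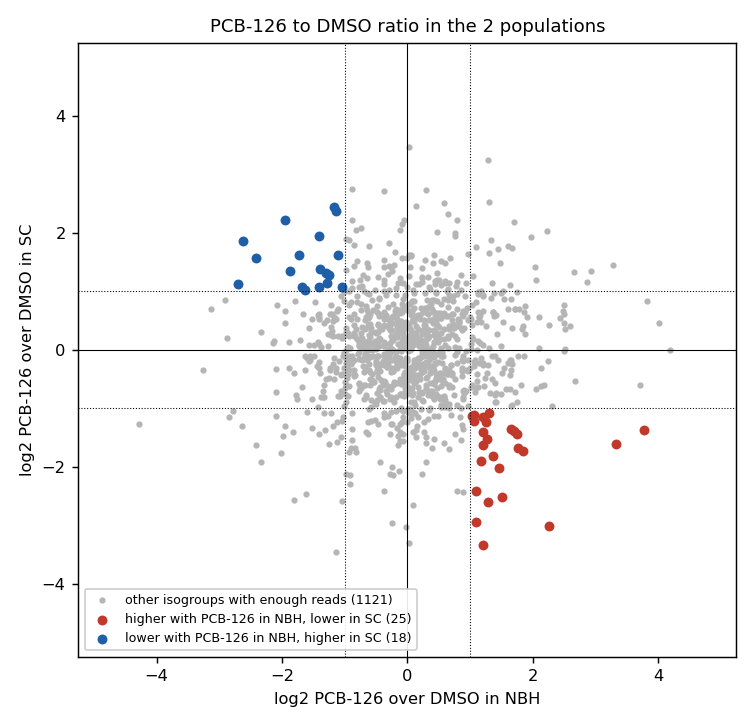
Log2 ratio of PCB-126 over DMSO in NBH (x axis) against the same ratio in SC (y axis) for the 1164 isogroups, 1 point each, with dotted lines at ratios of 0.5 and 2. The 25 isogroups in red lie at lower right and the 18 in blue at upper left by the rule that chose them, at the edge of a cloud with medians of 1.02 in NBH and 1.00 in SC.

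The isogroups that were higher with PCB-126 in NBH and lower in SC had between 17 and 135 reads in the NBH PCB-126 library (median 28.0) and between 1 and 46 in NBH DMSO (median 8). In SC they had between 4 and 100 reads with PCB-126 (median 8) and between 16 and 349 with DMSO (median 28.0). By the rule, the NBH PCB-126 and SC DMSO libraries were the high ones of their populations and the other pair the low ones. The ratio of PCB-126 over DMSO ran between 2.04 and 13.6 in NBH, with a median of 2.43. In SC it ran between 0.0988 and 0.472, with a median of 0.328, a level 3.05-fold lower with PCB-126. The shift was larger in SC for 15 of the 25 and larger in NBH for 10. Together these isogroups took 0.764% of the reads of NBH PCB-126, 0.270% of NBH DMSO, 0.261% of SC PCB-126 and 1.02% of SC DMSO.

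The 18 isogroups with the reverse pattern were scarcer. They had between 3 and 18 reads in NBH PCB-126 (median 10.5) and between 15 and 37 in NBH DMSO (median 21.0). In SC they had between 17 and 50 reads with PCB-126 (median 22.0) and between 3 and 18 with DMSO (median 8.50). Here, again by the rule, the NBH DMSO and SC PCB-126 libraries were the high ones. In NBH the ratio ran between 0.154 and 0.485 with a median of 0.376, or 2.66-fold lower with PCB-126, and in SC between 2.04 and 5.41 with a median of 2.57. The shift was larger in NBH for 10 and larger in SC for 8. Their summed share was 0.137% of NBH PCB-126, 0.402% of NBH DMSO, 0.359% of SC PCB-126 and 0.127% of SC DMSO.

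**Figure D2:**
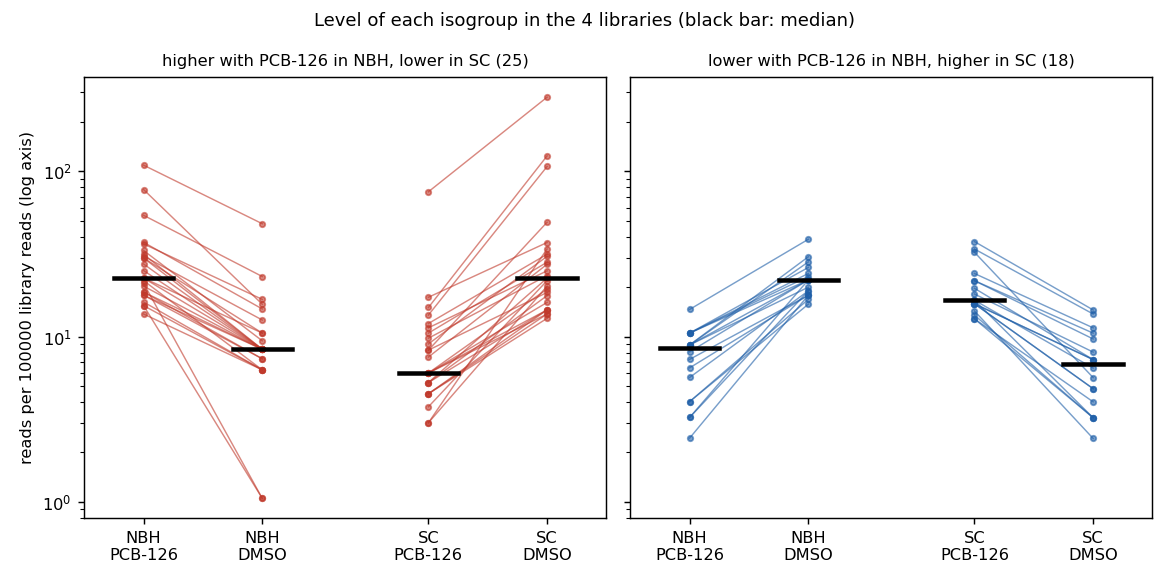
Level of each of the 43 isogroups in reads per 100000 library reads (log axis) in the 4 libraries, 1 point per library, with a line joining the treatments of a population and a black bar at the median. On the left, the 25 had medians of 22.6 in NBH PCB-126, 8.38 in NBH DMSO, 6.02 in SC PCB-126 and 22.6 in SC DMSO; on the right, the 18 had medians of 8.49 in NBH PCB-126, 22.0 in NBH DMSO, 16.6 in SC PCB-126 and 6.85 in SC DMSO.

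The widest opposite shift, taking for each isogroup the smaller of its NBH and SC shifts on the log2 scale, was that of isogroup00900. It had 96 reads in NBH PCB-126 and 15 in NBH DMSO, a ratio of 4.80 (exact 95% interval 2.85 to 9.17). In SC it had 20 reads with PCB-126 and 154 with DMSO, and its level was 8.08-fold lower with PCB-126, a ratio of 0.124 (0.0720 to 0.194). Both of its intervals lay beyond a 2-fold shift, and its smaller shift of 2.26 on the log2 scale was the largest among the 1164. Next came isogroup22518, with 39 reads in NBH PCB-126 and 8 in NBH DMSO, a ratio of 3.59 (1.73 to 9.32). In SC it had 12 reads with PCB-126 and 38 with DMSO, a ratio of 0.303 (0.140 to 0.576). This isogroup came close to a mirror image, since NBH PCB-126 and SC DMSO held 31.5 and 30.6 reads per 100000 while NBH DMSO and SC PCB-126 held 8.38 and 9.03.

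In the reverse direction, isogroup10776 had the widest shift. It had 5 reads in NBH PCB-126 and 16 in NBH DMSO, 3.89-fold lower with PCB-126, a ratio of 0.257 (0.0691 to 0.689). In SC it had 22 reads with PCB-126 and 4 with DMSO, a ratio of 4.67 (1.74 to 20.5). Of isogroup01398, 4 reads lay in NBH PCB-126 and 21 in NBH DMSO, a 6.19-fold lower level with PCB-126 and a ratio of 0.162 (0.0367 to 0.436). Its SC libraries held 17 reads with PCB-126 and 4 with DMSO, a ratio of 3.63 (1.29 to 16.2). Both isogroups had fewer than 10 reads in both of their low libraries, and the width of the intervals follows from those few reads.

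Among the 25, the most reads belonged to isogroup00084, with 630 over the 4 libraries. NBH PCB-126 held 135 and NBH DMSO 46 of them, a ratio of 2.25 (1.61 to 3.24). SC PCB-126 held 100 and SC DMSO 349, a 3.73-fold lower level with PCB-126 and a ratio of 0.268 (0.212 to 0.335). It was the best counted of the 43, and its NBH shift was near the threshold while its SC shift was well past it. The second in reads was isogroup00900, with 285. Among the 18, isogroup01646 had the most, 90 in all. It had 18 reads in NBH PCB-126 and 37 in NBH DMSO, a ratio of 0.381 (0.201 to 0.676), against 26 in SC PCB-126 and 9 in SC DMSO, a ratio of 2.60 (1.22 to 6.54). The second, isogroup01377, had 9 reads in NBH PCB-126 and 17 in NBH DMSO, a ratio of 0.419 (0.160 to 0.969), against 45 in SC PCB-126 and 17 in SC DMSO, a ratio of 2.43 (1.39 to 4.60). Even these had no more than 50 reads in any library, so the 18 as a group rest on fewer reads than the 25.

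Several of the 43 stood out by a single ratio and were picked after their values were seen. The largest NBH ratio among the 43, 13.6 for isogroup01515, came from 26 reads with PCB-126 and 1 with DMSO, and its exact interval ran between 3.30 and 823. The ratio of 10.0 of isogroup04779 came likewise from 19 reads against 1. Over the 1164 the NBH ratio ran between 0.0514 and 18.3. In SC, isogroup00858 had 4 reads with PCB-126 and 42 with DMSO, a level 10.1-fold lower with PCB-126 (ratio 0.0988, interval 0.0231 to 0.245). The largest SC ratio among the 18 was 5.41 for isogroup00308, with 43 reads with PCB-126 and 7 with DMSO (2.56 to 15.1). The lowest NBH ratio among the 18 was 0.154 for isogroup12592, with 3 reads with PCB-126 and 17 with DMSO (0.0256 to 0.471).

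**Figure D3:**
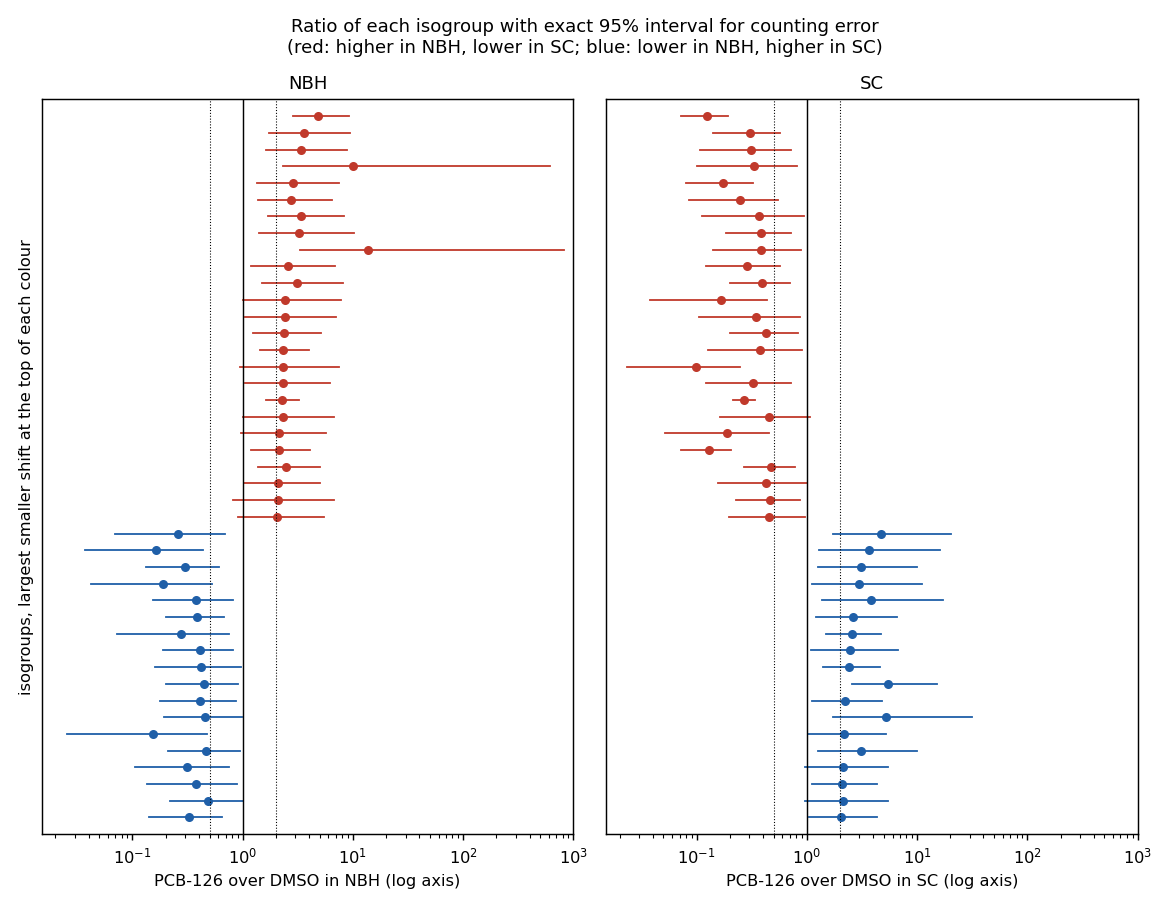
PCB-126 over DMSO ratio in NBH (left) and SC (right) for the 43 isogroups on log axes, with exact 95% intervals for counting error, a solid line at 1 and dotted lines at 0.5 and 2. In 34 of the 43 the intervals left out 1 in both populations. The rule pushes the ratios away from 1, and the same count was not made over the other isogroups. The ratios have 0.5 reads added and the intervals do not.

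For part of the set, an interval for counting error included a ratio of 1. The intervals left out a ratio of 1 in both populations for 18 of the 25 and for 16 of the 18. Among the 25 the NBH interval included 1 for isogroup00113, isogroup00689, isogroup00775, isogroup00858 and isogroup00990, and the SC interval for isogroup01506 and isogroup03708. Among the 18 it was the SC interval of isogroup00599 and isogroup03462. These intervals are a description, because the counts in them are those that chose the isogroups. The rule itself pushes the ratios away from 1, and the same count was not made over the 1164. None of the 43 had a library without reads, but 36 had fewer than 10 reads in their lowest library, as had 356 of the 1164. At least 10 reads in every library were found for 5 of the 25 (isogroup00084, isogroup00900, isogroup01867, isogroup02807 and isogroup13204) and for 2 of the 18 (isogroup00696 and isogroup02443).

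The set was weighted toward isogroups of fewer reads. The median total over the 4 libraries was 74.0 reads for the 25 and 65.5 for the 18, against 92.0 for the 1164. Opposite shifts were found in 12 of 216 isogroups with 40 to 59 reads in all (5.56%), and in 25 of 428 with 60 to 99 reads (5.84%). Above that they were rarer, with 3 of 309 at 100 to 199 reads (0.971%) and 3 of 211 at 200 reads or more (1.42%). Shifts in the same direction thinned out in a like manner, with 15 (6.94%), 26 (6.07%), 9 (2.91%) and 1 (0.474%) in these bins. The isogroups with an opposite shift and at least 200 reads were isogroup00084, isogroup00900 and isogroup13204, all of them higher in NBH and lower in SC.

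At the threshold itself, the members with the least shift lay close to their neighbours outside. Just inside, isogroup00689 had ratios of 2.04 in NBH and 0.457 in SC, and isogroup00113 had 2.08 and 0.459. Just outside, isogroup00770 had 4.96 in NBH and 0.512 in SC, and isogroup02907 had 1.96 and 0.513. In the reverse direction, isogroup00696 (0.323 in NBH, 2.04 in SC) and isogroup00599 (0.485 and 2.11) lay just inside. There isogroup12100 (0.505 and 3.71) and isogroup02548 (0.497 and 1.98) lay just outside. The first of these, isogroup12100, had 167 reads in all, with 26 in NBH PCB-126, 40 in NBH DMSO, 81 in SC PCB-126 and 20 in SC DMSO, more than any of the 18.

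As the required ratio was raised, opposite and same-direction shifts fell away together. At a ratio of 1.5 there were 150 opposite and 159 same-direction isogroups, at 2.5 there were 18 and 21, and at 3 there were 7 and 10. The 7 were isogroup00900, isogroup22518, isogroup06677 and isogroup04779 in the first direction, and isogroup10776, isogroup01398 and isogroup02301 in the second. At a ratio of 4 only isogroup00900 was left. Its same-direction counterparts at that ratio also numbered 1.

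Seen between the populations, the order of NBH and SC turned round with the treatment in 24 of the 25 and in all 18. Among the 1164 it turned round in the first direction in 304 and in the second in 302. With PCB-126, the NBH level was higher than the SC level in all 25 isogroups of the first direction, at least 2-fold in 23, with a median NBH over SC ratio of 3.22. With DMSO, the NBH level was lower in 24 of those 25, at most 0.5 times the SC level in 19, with a median ratio of 0.331. The exception was isogroup00732, higher in NBH under both treatments, with ratios of 9.67 with PCB-126 and 1.58 with DMSO. In the second direction, the NBH level was lower with PCB-126 in all 18, at most 0.5 times the SC level in 11, with a median ratio of 0.397. With DMSO it was higher in all 18, at least 2-fold in 15, with a median of 3.99. Among the 1164, with PCB-126 the NBH level was at least 2-fold higher in 143 and at most 0.5 times the SC level in 94, and with DMSO in 151 and 142. These ratios are built from the levels that chose the isogroups, and a ratio of 2 in at least 1 treatment is bound to follow from the rule.

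**Figure D4:**
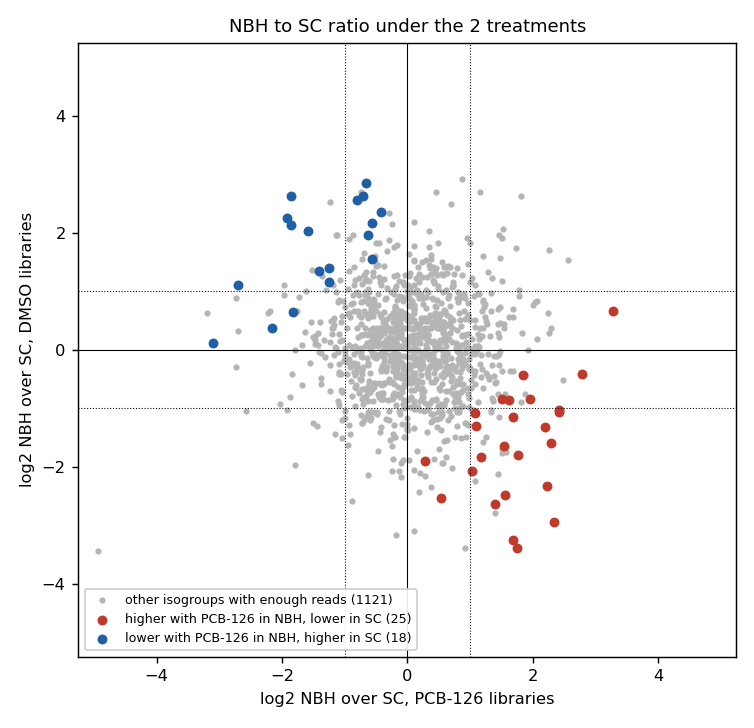
Log2 ratio of NBH over SC in the PCB-126 libraries (x axis) against the DMSO libraries (y axis) for the 1164 isogroups, with dotted lines at ratios of 0.5 and 2. All of the 25 in red lie right of 0 and 24 of them below it, and the 18 in blue lie left of 0 and above it.

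By the counts that chose them, the isogroups differed in the treatment under which the populations were apart. Of the 25, 17 (68.0%) were 2-fold apart under both treatments and in opposite order, 6 (24.0%) with PCB-126 only, and 2 (isogroup00084 and isogroup00113) with DMSO only. Of the 18, 8 (44.4%) were apart under both treatments, 3 (isogroup01377, isogroup05831 and isogroup12850) with PCB-126 only, and 7 (38.9%) with DMSO only. Among all 1164, 31 isogroups turned round by 2-fold under both treatments in the first direction and 18 in the second. Members made up 17 of 31 and 8 of 18. That overlap is partly built in, because such a turn and the rule both require NBH and SC shifts far apart in the same counts. Isogroups apart under only a single treatment were not counted over the 1164, so whether these splits set the members apart was not tested. The rule itself limits which libraries can hold the highest and the lowest of the 4 levels in each direction. The highest of the 4 levels was in NBH PCB-126 for 13 of the 25 and in SC DMSO for 12, and the lowest in SC PCB-126 for 17 and in NBH DMSO for 8. Among the 1164 the highest level was in NBH PCB-126 for 306, NBH DMSO for 329, SC PCB-126 for 271 and SC DMSO for 258. Of the 18, 13 had their highest level in NBH DMSO and 5 in SC PCB-126, and 8 had their lowest in NBH PCB-126 and 10 in SC DMSO.

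In 16 of the 25 and 13 of the 18, NBH PCB-126 lay within 2-fold of SC DMSO and NBH DMSO within 2-fold of SC PCB-126. That held for 693 of the 1164, so it was common outside the 43 too. Because the rule requires opposite shifts, they offset each other when the populations are pooled. The pooled ratio of PCB-126 over DMSO had a median of 0.910 in the 25 and 0.964 in the 18, and it stayed between 0.5 and 2 in 23 and in all 18. The exceptions were isogroup13204 at 0.362 and isogroup00858 at 0.410, whose SC DMSO libraries held the most reads. On pooled populations, 41 of the 43 were inside the 2-fold range, as were 1016 of the 1164, whose median was 0.998, so this range does not set the 43 apart.

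The populations were also compared on the sum of both libraries of each, a contrast that sets no direction in the rule. The sums are nevertheless made of the same 4 counts that chose the isogroups through the ratios, the minimum of 20 reads and the removal of abundant isogroups, so the p-values for the 43 are not independent of that choice. A two-sided Fisher's exact test was run on 1265 isogroups with Benjamini-Hochberg adjustment, and called were an adjusted p under 0.05 with a ratio of at least 2 either way. Over all 1265, 67 isogroups (5.30%) were called higher in NBH and 36 (2.85%) lower. Of the 43, 2 (4.65%) were called higher in NBH and 4 (9.30%) lower. The median ratio of NBH over SC sums was 1.05 in the 25 and 1.12 in the 18, against 1.03 in the 1164. This test sets the reads of pooled libraries against each other, with counting error only. The exact test of edgeR was also run on the sums, with an assumed coefficient of variation of 0.4 on each population's sum. It called 0 of the 43 and 1 of the 1265. At an unadjusted p under 0.05 this exact test gave 1 of the 43, isogroup00732 (p = 0.0278), and 9 of the 1265. That isogroup had the largest sum ratio of the 43, 4.17, and was still not called. At this setting the exact test therefore cannot decide whether smaller differences are present.

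Of the isogroups with higher NBH sums, isogroup00732 had 67 reads in NBH PCB-126 and 22 in NBH DMSO, against 7 in SC PCB-126 and 18 in SC DMSO. Its NBH sum was 4.17 times its SC sum (Fisher's exact test, adjusted p = 2.97e-10). The other, isogroup00088, had 41 and 9 reads in NBH with PCB-126 and DMSO, against 6 and 16 in SC, a ratio of 2.67 (adjusted p = 0.00103). Both also belonged to the 25, and NBH PCB-126 held 58.8% and 56.9% of their reads. By the rule, that library is the higher of the NBH pair in the 25, so these p-values rest on the counts that chose the isogroups. With DMSO alone, the NBH over SC ratio of isogroup00088 was 0.748, the other way round.

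Lower NBH sums were called for 2 of the 25 and 2 of the 18. The sum of isogroup00084 was 181 reads in NBH and 449 in SC, a ratio of 0.473 (Fisher's exact test, adjusted p = 1.83e-16). For isogroup13204, with 45 and 16 reads in NBH with PCB-126 and DMSO against 18 and 133 in SC, the ratio was 0.474 (adjusted p = 8.99e-06). SC DMSO held 55.4% and 62.7% of the reads of these isogroups, and with PCB-126 alone their NBH over SC ratios were 1.45 and 2.64, the other way round. Of the 18, isogroup12850 had 5 and 15 reads in NBH with PCB-126 and DMSO against 50 and 18 in SC, a ratio of 0.345 (adjusted p = 1.42e-04). The NBH sum of isogroup01377 was 26 reads and its SC sum 62, a ratio of 0.492 (adjusted p = 0.0137). In these, SC PCB-126 held 56.8% and 51.1% of the reads, and with DMSO alone the NBH over SC ratios were 1.09 and 1.30. Among the 6 called isogroups, NBH and SC differed in the same direction under both treatments only in isogroup00732. The p-values of these 6 rest on the counts that chose them and cover counting error only, not variation between libraries.

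Isogroups are numbered in the order of the table, and the 43 were spread over it. The median number was 1602 in the 25 and 2372 in the 18, against 1954 in the 1164. Numbers above 10000 were found in 7 of the 43 (16.3%) and in 86 of the 1164 (7.39%). The 7 included isogroup22518, isogroup13204, isogroup10776 and isogroup12850, described above.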

How the data were processed

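RNA of 10 dpf embryos was read by the authors by pyrosequencing of 3′-anchored, non-normalized cDNA libraries, 4 barcoded libraries on 1 region of the instrument. The authors deposited 1 table of raw counts, whole numbers of unique matching reads per isogroup; the counting program, assembly and filters are not given in the sources used here. Column sums served as library sizes, so shares of a library are shares of its counted reads. In the last 4 rows, 7 blank cells, none in the isogroups described, were read as 0. The other 2 libraries of untreated fish were not analysed here.

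Levels, ratios and the rule that chose the isogroups were computed with Python 3.11.15 (pandas 2.3.3, numpy 2.4.6), and Fisher's exact tests and exact Clopper-Pearson 95% intervals of ratios with scipy 1.17.1. Tests are two-sided. The intervals treat each read as an independent molecule, which PCR copies are not, so they can be too narrow even for counting error. They cover no other error. Alternatives were TMM library sizes and the exact test of edgeR 4.0.16 with an assumed coefficient of variation of 0.4, DESeq2 1.42.0 size factors (R 4.3.3), totals without the 10 isogroups of most reads, other minimum reads, added reads and ratios, and abundant isogroups kept. Scripts were tested on simulated data.

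Named isogroups were at most 2 per direction for each of the largest smaller shift, the most reads, values just inside and just outside the threshold, and the smallest p in the test of sums; others were named after their values were seen. The isogroups and rules were chosen with earlier results of these data known. A list of AHR target genes could not be used without gene names.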

Additional observations from a re-analysis of the deposited data

Results flagged for a closer look

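These isogroups are listed because the level moved in opposite directions with PCB-126 in the populations. In 25 isogroups the NBH level was higher with PCB-126 while the SC level was lower, and in 18 the NBH level was lower while the SC level was higher. That difference was not tested, because the same counts chose the isogroups and each condition has 1 library.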

How the results depend on the processing

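The 25 and the 18 were the same isogroups with TMM library sizes, DESeq2 size factors and totals without the 10 isogroups of most reads, which moved the median log2 ratio of the 1164 by at most 0.05. With abundant isogroups kept the counts were again 25 and 18, with 1 read added 23 and 17, and with 0.1 reads added 25 and 19. The minimum of reads and the ratio set the counts. A minimum of 1 read per population gave 1625 and 1492 of 13119 isogroups (12.4% and 11.4%). A minimum of 10 reads gave 101 and 103 of 2370 (4.26% and 4.35%), and of 40 reads 7 and 0 of 543. Same-direction shifts numbered 3167, 174 and 11 at these minimums, so they rose and fell with the opposite shifts. A ratio of 1.5 gave 80 and 70, and a ratio of 3 gave 4 and 3. In the test of sums, 6 of the 43 were called with each library scaling and with a minimum of 1 read. With no minimum ratio 7 were called, and with a ratio of 4 only 1. The exact test of edgeR, with a coefficient of variation of 0.4 on each sum, called 0. That setting cannot decide on ratios as small as most of these. Leaving out a library was not possible with 1 per condition. No paired analysis was possible because the labels give no replicates. Depth limits the set, since 36 of the 43 had fewer than 10 reads in a library.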
